A study of Mus musculus with 18 samples.

Results

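Antimicrobial and mucosal defence genes were followed over the day in mouse distal colon. The 10 genes were Reg3b, Reg3g, Pigr, Nos2, Duox2, Duoxa2, Lcn2, Saa3, S100a8 and S100a9, and every probe set (a group of short probes read as 1 value) whose gene symbol in the platform annotation was exactly one of them was taken. That gave 11 probe sets for 9 of the 10 genes, out of 45101 probe sets on the array. Duox2 had no listed probe set and was not measured here. The tissue was cut about 0.5 cm above the anus from mice on a cycle of 12 h light and 12 h dark with free access to food. It was collected at 8am, 12pm, 4pm, 8pm, 12am and 4am, which is 1, 5, 9, 13, 17 and 21 h after lights on, and each time had 3 Affymetrix arrays, a to c. Strain, sex and age were not given in the labels, no mouse was described as mutant or treated, and nothing said whether arrays of 1 time were of different mice, so p-values measure the spread between arrays, which may be technical. The series asks which colonic mRNAs follow the time of day.

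The colonic surface keeps bacteria at a distance with secreted proteins, with antibody carried across the epithelium and with reactive oxygen and nitrogen compounds. Epithelial cells make Reg3 lectins, the IgA carrier Pigr and the Duox2 oxidase with its partner Duoxa2, and raise several of them when bacteria or the cytokines IL-22 and IL-17 stimulate them. Neutrophils are the best known source of S100a8 and S100a9, and Lcn2 comes from neutrophils and from inflamed epithelium. In whole tissue, fewer cells of a type and less RNA per cell cannot be told apart.

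Some arrays stood apart from the rest. For the Gapdh control the 3′ probes over the 5′ probes, a measure of RNA length, gave a ratio of 34.3 in 4pm b, 36.0 in 4am a and 18.2 in 4am b, 2.33 in 4pm c and between 0.746 and 1.12 in the other 14 arrays. All 4 raised ratios are therefore of 4 o'clock arrays. The colon was present throughout: 12 of 12 colon epithelium markers passed the filter on low signal, and their summed signal ran from 101284 in 4am a to 169645 in 8am c. The 12 transcripts of the exocrine pancreas with a probe set, from a list added after the data had been seen, all passed the filter and summed to 271672 in 12am b, 145443 in 4pm b and 106858 in 12am a, against 18890 to 56328 in the other 15 arrays. The median signal of an array was 161 to 184 in the 8am and 8pm arrays, 188 to 252 in those of 12pm and 12am, and 127 to 209 in those of 4pm and 4am. All 18 arrays were used, with results that change without an array named where they stand.

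None of the 3 defence genes that could be tested was called for a 24 h rhythm or between light and dark. Tests ran on log2(signal + 16) for genes whose mean log2 signal over all arrays reached the 40th percentile of probe sets (7.10), and 12870 genes passed. Of the defence genes, 3 passed, namely Reg3b, Duoxa2 and Pigr. The other 6 with a probe set, Reg3g, Nos2, Lcn2, Saa3, S100a8 and S100a9, lay under the filter. The file gave no detection calls, so a low signal is a low value and not a statement that the gene was off. The second Reg3b probe set lay just under the filter at 7.097, and Saa3 was the next below it at 7.02. The members closest above it were the first Reg3b probe set at 7.74 and Duoxa2 at 8.24.

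In the limma fit with Benjamini-Hochberg adjustment over all genes and a threshold of 0.05, 0 of 3 were called for a 24 h cosine curve (0.0389% of all genes), for light against dark (0%, with 799 genes at an unadjusted p under 0.05), for 8am against 8pm (0.00777%), for 12pm against 12am (0%, with 1044 genes under 0.05) and for 4pm against 4am (0.0466%). At an unadjusted p under 0.05 the count was 0 of 3 in the first 4 of these tests and 1 of 3, Pigr, in the last. The fitted 24 h amplitude was 0.16 ± 0.15 (SE, n = 18) on the log2 scale for Reg3b, 0.05 ± 0.13 for Duoxa2 and 0.19 ± 0.10 for Pigr, with adjusted p of 0.953, 0.988 and 0.948 from limma. For a difference between any of the 6 times, 0 of 3 were called (17% of all genes), and their adjusted p lay between 0.0638 and 0.0975. The 3 genes had unadjusted p between 0.0150 and 0.0347 in that test. Reg3b (adjusted p = 0.0420) and Pigr (0.0340) were called in it without the 3 arrays of highest Gapdh ratio.

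The genes under the filter were reached by a second fit with every probe set that had 1 symbol and no filter (34945 probe sets). There 0 of the 11 defence probe sets were called for the 24 h curve (0.0143% of probe sets), light against dark (0%, with 2043 at an unadjusted p under 0.05), 8am against 8pm (0.0143%), 12pm against 12am (0.00572%), 4pm against 4am (0.0143%) or any of the 6 times (10.6%). At an unadjusted p under 0.05 the counts were 0, 0, 1, 0, 2 and 5 of the 11 in these 6 tests of limma. Between the 3 sets of times described next, 2 of the 11 were called, the first of Reg3b and that of Nos2 (29% of probe sets).

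Reg3b and Duoxa2 were called between sets of times 12 h apart. When the arrays were grouped as 8am with 8pm, 12pm with 12am and 4pm with 4am, 2 of 3 tested genes differed between the 3 sets of times, against 35% of all genes. This grouping was chosen with earlier results of these data in view, and so many genes shared it that it is not particular to the defence genes. Over all probe sets the 12 o'clock arrays were already higher than the 8 o'clock arrays by a median of 0.20 on the log2 scale, and by 0.01 after quantile normalization, so differences of 12 from 8 o'clock are also given relative to that shift. After quantile normalization 0 of 3 were called between the sets (32.3% of all genes), and 0 of 3 between any of the 6 times (15.2%). None of the 11 defence probe sets separated all 8 o'clock from all 4 o'clock arrays (8.21% of all genes did).

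**Figure D1:**
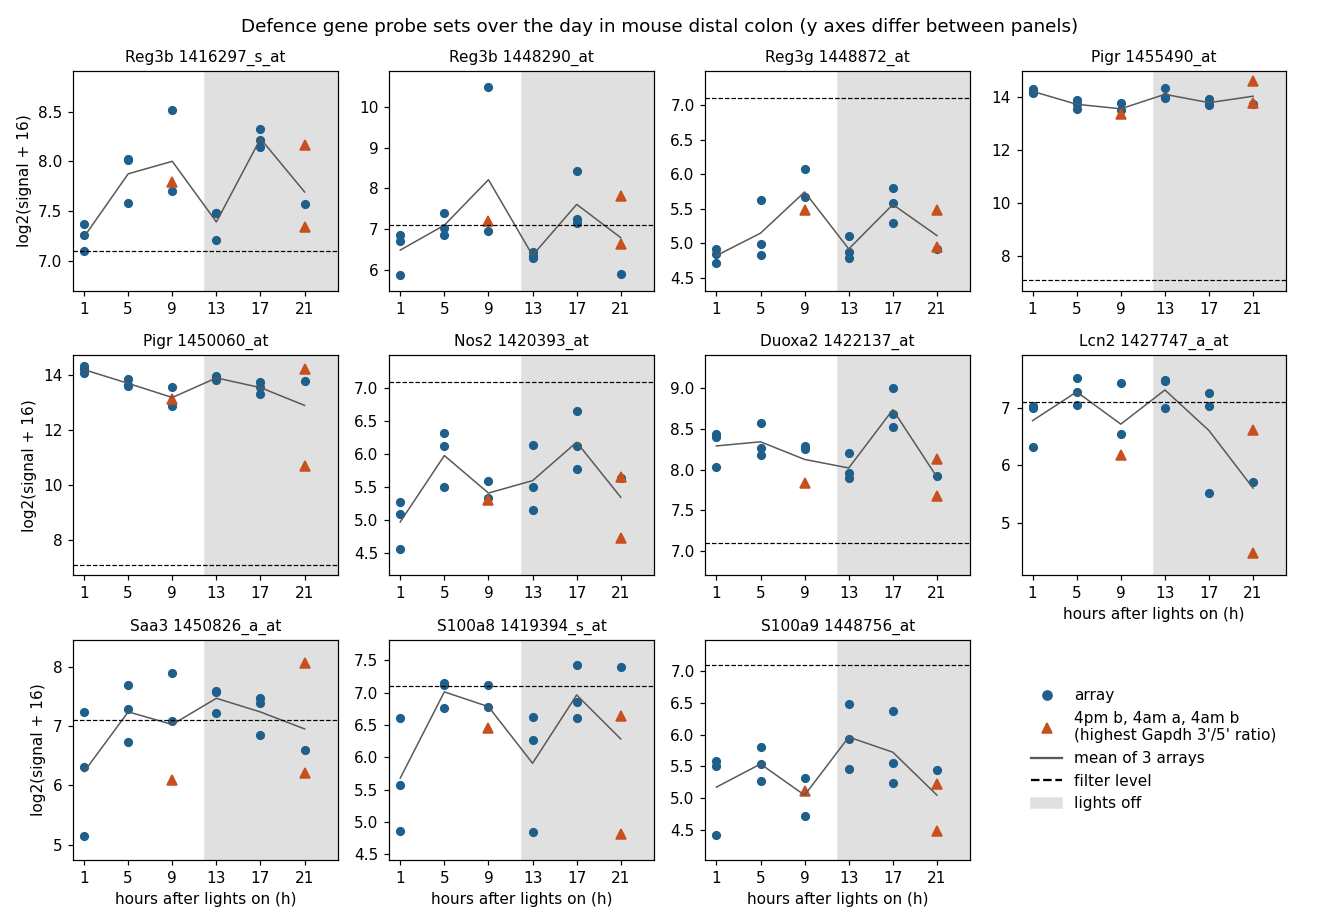
Each panel plots log2(signal + 16) of 1 probe set against hours after lights on, with 1 point per array, a line through the mean of the 3 arrays of a time, grey shading for lights off and a dashed line at the filter level of 7.10. Triangles mark the 3 arrays with the highest Gapdh ratio. The first Reg3b probe set is low at 1 and 13 h, and the second Pigr probe set is lowest in 4am a, followed by 4pm c. The y axes differ between panels.

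Reg3b and Reg3g encode C-type lectins that intestinal epithelium secretes into the lumen, and Reg3g is known to kill Gram-positive bacteria by binding their cell wall. The genes lie in a cluster of Reg genes on chromosome 6, with Reg3b at chr6:78370885-78373466 on the plus strand and Reg3g at chr6:78466269-78468874 on the minus strand (GRCm38.p6), 92802 bases apart, and Reg3d, Reg3a, Reg2 and Reg1 between them. Their 250 bases before the start site are printed because these windows are alike and both genes had their lowest means at 8am and 8pm as deposited. After quantile normalization the mean of Reg3g was lowest at 12pm (5.05, against 5.09 at 8am and 5.10 at 8pm). In a global alignment 173 of 250 bases were identical (69.2%), while the other pairs of defence gene windows shared between 46% and 57.6%. Capitals mark a match to the STAT motif TTCNNNGAA in Reg3b, a match to the NF-kappaB motif in Reg3g, and the TATAAA box in both. The sequences are those of RefSeq, build GRCm38.p6, written 5′ to 3′ on the strand of the gene.
Reg3b, chr6:78370635-78370884, plus strand: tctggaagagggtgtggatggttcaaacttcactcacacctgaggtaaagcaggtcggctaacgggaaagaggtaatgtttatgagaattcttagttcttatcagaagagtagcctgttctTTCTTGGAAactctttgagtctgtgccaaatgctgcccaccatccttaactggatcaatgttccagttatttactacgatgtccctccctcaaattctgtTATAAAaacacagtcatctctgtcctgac
Reg3g, chr6:78468875-78469124, minus strand: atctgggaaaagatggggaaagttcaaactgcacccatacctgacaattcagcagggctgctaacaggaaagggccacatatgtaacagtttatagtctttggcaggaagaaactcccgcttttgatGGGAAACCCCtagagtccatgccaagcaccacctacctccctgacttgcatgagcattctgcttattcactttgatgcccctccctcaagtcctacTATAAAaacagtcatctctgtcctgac
The STAT match TTCTTGGAA began 129 bases before the start of Reg3b, and the NF-kappaB match GGGAAACCCC began 123 bases before that of Reg3g. TATAAA stood 29 and 27 bases before the start. Among all 32851 promoter windows of this length, 7.02% held the STAT motif and 7.25% the NF-kappaB motif on either strand, and 7.59% held TATAAA on the strand of the gene. A match is a description of letters and not of a bound factor.

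Reg3b was lowest at 8am and 8pm. On the first Reg3b probe set (1416297_s_at), 8am arrays a to c read 149, 120.4 and 137, those of 12pm 242, 176 and 245, and those of 4pm 192, 205 and 349.8. In the dark, 8pm arrays read 163, 162 and 132, those of 12am 268, 281 and 306, and those of 4am 146, 271 and 175. All 6 arrays of 8am and 8pm lay below all 6 arrays of 12pm and 12am, a separation that 12.9% of all genes showed in one direction or the other, and they overlapped with those of 4pm and 4am. The log2 mean was 7.31 ± 0.16 (SD, n = 6) at 8 o'clock, 8.05 ± 0.26 at 12 o'clock and 7.85 ± 0.43 at 4 o'clock. The range of these means was 0.74, with an adjusted p of 0.0196 from limma, and the rise from 8 to 12 o'clock was 0.54 relative to the median of all probe sets. Quantile normalization left a range of 0.53, with an adjusted p of 0.0549, which missed the threshold. Over the other alternatives that kept all arrays the adjusted p lay between 0.000716 and 0.0308, and leaving out each array in turn gave 0.00950 to 0.0485. Array 12am b, with the most pancreas signal, read 281, and without it the adjusted p was 0.0316.

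The second Reg3b probe set (1448290_at) was also lowest at 8 o'clock, with 1 array far above the rest. In the light, 8am arrays a to c read 89.3, 101 and 43.3, those of 12pm 154, 101 and 114, and those of 4pm 108, 132 and 1413. With lights off, 8pm arrays read 71.9, 62.6 and 64.8, those of 12am 127, 327 and 137, and those of 4am 84.5, 209 and 44.5. Array 4pm c, at 1413, stood 4.33-fold above the next, 12am b at 327. The first Reg3b probe set and Reg3g were also highest in 4pm c, but only 1.14-fold and 1.28-fold above the next array. Array 4pm c had a Gapdh ratio of 2.33. Reg1, of the same gene cluster, read 131 there, its lowest signal at 4pm. The log2 mean was 6.43 at 8 o'clock, 7.36 at 12 o'clock and 7.51 at 4 o'clock, so the highest set was 4 o'clock and not 12 as on the first probe set. Here too all 8 o'clock arrays lay below all 12 o'clock arrays as deposited, a separation that 12.9% of all genes showed in either direction. After quantile normalization these sets overlapped, with a log2 value of 6.93 in 8am a and 6.75 in 12pm c. Arrays 8am b at 100.9 and 12pm b at 101.3 were close. Every probe set was also tested without a filter, and there the adjusted p of this one between the sets was 0.161 from limma.

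Markers of other gut epithelium were mixed in 4pm c. Itln1, an intestinal lectin of Paneth and goblet cells, reached 247 there against a median of 50.7 over the arrays, and Apoa1, an apolipoprotein of small intestinal enterocytes, reached 389 against a median of 58.7. Apob, another apolipoprotein of enterocytes, had its lowest signal there, 68.4 against a median of 444. All 3 were named after their values had been seen. The pancreas list summed to 32058 in 4pm c, within the range of the 15 arrays without high pancreas signal. Summed signal of 13 small intestinal enterocyte markers, 7 of them past the filter, was 3697 in 4pm c, close to the median of 3715 over the arrays, and that of 7 Paneth cell markers, 3 past the filter, was 6807, against 12349 in 4pm b. Without 4pm c the adjusted p of the first Reg3b probe set between the sets was 0.0149 from limma.

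Reg3g (1448872_at) had low signals throughout. In the light, 8am arrays a to c read 12.7, 14.04 and 10.1, those of 12pm 12.3, 33.5 and 15.6, and those of 4pm 35.1, 28.6 and 51.2. Arrays of 8pm read 11.5, 18.3 and 13.2, those of 12am 31.7, 39.95 and 23.3, and those of 4am 28.6, 14.6 and 14.1. As deposited, the 3 arrays of 4pm and the 3 of 12am lay above all 6 arrays of 8am and 8pm, while 12pm and 4am overlapped with them. This comparison was not planned, and the share of all probe sets that show it was not computed. After quantile normalization 12am c, at 4.79, lay below all 6 arrays of 8am and 8pm (4.97 to 5.24). The arrays of 4pm (5.65 to 5.85) stayed above them. Tested without a filter, its range over the 3 sets was 0.56 on the log2 scale, with an adjusted p of 0.0525 from limma, against 29% of probe sets called. Its difference of 0.48 between 12 and 8 o'clock was 0.29 relative to the median of all probe sets and 0.04 after quantile normalization. At signals this close to the constant of 16, the log2 scale understates a change.

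**Figure D2:**
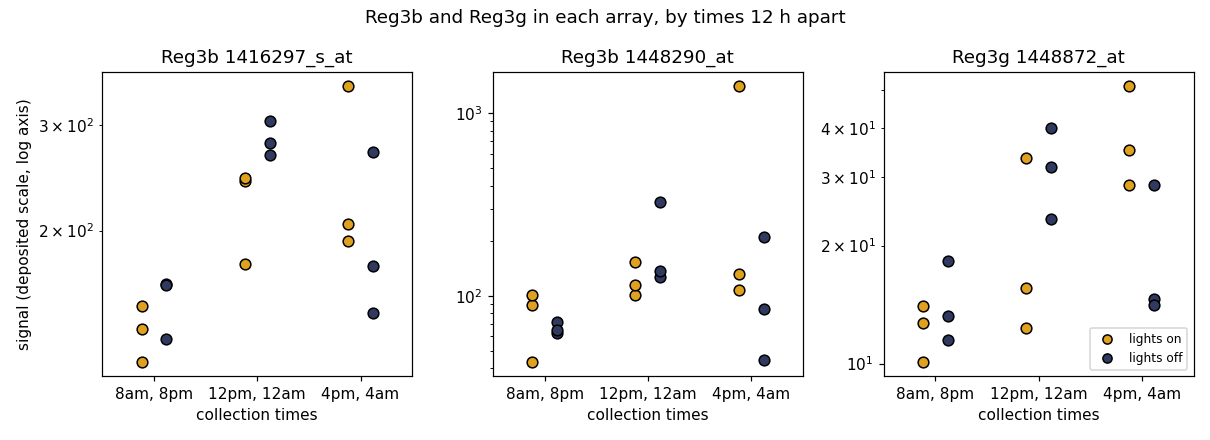
The signal of the Reg3b and Reg3g probe sets is plotted on a log axis for each array, with collection times 12 h apart side by side and the light and dark member of each set in 2 colours. In both Reg3b panels the 8am and 8pm arrays lie below all 12pm and 12am arrays, and the point at 1413 is 4pm c.

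Across the 18 arrays Reg3b and Reg3g were correlated. Pearson's r was 0.54 (permutation p = 0.0215, adjusted over the 2 pairs of genes tested p = 0.0431, n = 18) and Spearman's rho was 0.58 (permutation adjusted p = 0.0249). Without 4pm c and 12am c, the arrays farthest from the median of Reg3b, r was 0.40 (permutation p = 0.123) and rho was 0.52 (permutation p = 0.0413), so Pearson's r missed the threshold and Spearman's rho did not. Within the sets of 6 arrays r was 0.21 at 8 o'clock, -0.04 at 12 o'clock and 0.37 at 4 o'clock (exact permutation p = 0.733, 0.954 and 0.463). Deviations of each array from the mean of its time gave r = -0.19.

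Duoxa2 is the maturation factor that brings the Duox2 oxidase to the cell surface, where the enzyme makes hydrogen peroxide. It lies at chr2:122298900-122302885 (GRCm38.p6), and the gap to its head-to-head partner Duox2 was 159 bases. On its probe set (1422137_at), 8am arrays a to c read 246, 330.0 and 322, those of 12pm 275, 366 and 291, and those of 4pm 297, 212 and 289. In the dark, 8pm arrays read 232, 222 and 279.9, those of 12am 394, 498 and 352, and those of 4am 264, 188 and 226.

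The highest time for Duoxa2 was 12am, and only 12pm b, at 366, reached into its range. The log2 mean was 8.54 ± 0.30 (SD, n = 6) at 12 o'clock, 8.16 ± 0.23 at 8 o'clock and 8.02 ± 0.25 at 4 o'clock, and the arrays of the 3 sets overlapped. The range of 0.52 had an adjusted p of 0.0397 from limma. This call was close to the threshold: it was lost after quantile normalization (range 0.30, adjusted p = 0.331), without the 3 arrays of highest Gapdh ratio (adjusted p = 0.0735), and without any one of 8am a, 8am c, 8pm a, 8pm b, 12am a, 12am b, 4pm b, 4am b and the 3 arrays of 12pm. Leaving out each array in turn gave an adjusted p between 0.0288 and 0.0989. The replicate block gave 0.0539. Relative to the median of all probe sets, 12 o'clock exceeded 8 o'clock by 0.19. Within the 12 o'clock set the mean was 8.34 at 12pm and 8.74 at 12am, and that of 8am, at 8.29, was closer to 12pm. The contrast of 12pm with 12am gave -0.39 ± 0.23 (SE, n = 3 per time; adjusted p = 0.680 from limma).

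Pigr is the receptor that takes dimeric IgA from the tissue through the epithelial cell into the lumen. It lies at chr1:130826684-130852249 on the plus strand (GRCm38.p6) and had 2 probe sets. Its 250 bases before the start are printed because they hold the only E-box CACGTG, the motif that clock proteins Clock and Bmal1 bind, among the 9 defence genes with a promoter window, and the gene was tested here for rhythm. Capitals mark the E-box.
Pigr, chr1:130826434-130826683, plus strand: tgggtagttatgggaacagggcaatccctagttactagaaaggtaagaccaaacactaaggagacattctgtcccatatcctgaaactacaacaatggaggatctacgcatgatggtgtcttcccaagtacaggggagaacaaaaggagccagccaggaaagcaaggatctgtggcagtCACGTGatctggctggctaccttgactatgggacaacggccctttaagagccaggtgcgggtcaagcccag
The E-box began 71 bases before the start, and 6.02% of all windows held one on either strand. The D-box TTATGTAA, a motif of clock output factors such as Dbp, was found in 0 of the 9 windows and in 0.819% of all windows. TATAAA was found in 4 of the 9, those of Reg3b, Reg3g, Duoxa2 and S100a8.

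Pigr signals spanned 2.33-fold over the 18 arrays. On the probe set with the higher mean (1455490_at), 8am arrays a to c read 18477, 18102 and 20430.2, those of 12pm 15099, 13576 and 12118, and those of 4pm 11798, 10544 and 14037. With lights off, 8pm arrays read 20582, 16003 and 16442, those of 12am 13786, 15572 and 13121, and those of 4am 13836, 24618 and 13735. As deposited, all 6 arrays of 8am and 8pm lay above all 6 of 12pm and 12am, the opposite direction to Reg3b. Such a separation was shown by 12.9% of all genes in one direction or the other. After quantile normalization these arrays overlapped, with a log2 value of 13.84 in 8pm b and 13.98 in 12pm a. On the second Pigr probe set they overlapped as deposited, with 14380 in 8pm b and 14904 in 12pm a. The direction was not particular to Pigr. Summed signal of the colon epithelium markers ran from 142998 to 169645 at 8 o'clock and from 114046 to 149166 at 12 o'clock.

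The log2 mean of Pigr was 14.16 ± 0.15 (SD, n = 6) at 8 o'clock, 13.76 ± 0.13 at 12 o'clock and 13.79 ± 0.42 at 4 o'clock. The range of 0.40 had an adjusted p of 0.0569 from limma and missed the threshold. Without 4am b, the array with the highest signal, the adjusted p was 0.00604, without 4pm c it was 0.0464, without 4am c 0.0383, and without the 3 arrays of highest Gapdh ratio 0.00689. Leaving out any other array gave between 0.0646 and 0.144. The difference of 12 from 8 o'clock was -0.40 as deposited, -0.60 relative to the median of all probe sets and -0.10 after quantile normalization (adjusted p of the range 0.537), so its size depends on the scaling. The mean of Pigr lay at percentile 99.8 of probe sets, where the median shift may not apply. At 4pm against 4am the difference was -0.47 ± 0.20 (SE, n = 3 per time; adjusted p = 0.215 from limma), and it passed without 4am c (adjusted p = 0.0328). It was -0.19 without 4am b (adjusted p = 0.580) and -0.09 without the 3 arrays of highest Gapdh ratio (adjusted p = 0.988), and the second probe set gave 0.29 in the opposite direction (adjusted p = 0.816 from limma with every probe set tested on its own).

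The second Pigr probe set (1450060_at) followed the first except in 4pm c and 4am a. The log2 ratio of the second to the first was between -0.44 and 0.06 in the 14 arrays with a Gapdh ratio under 2, with a median of -0.10. It was -0.24 in 4pm b, -0.35 in 4am b, -0.92 in 4pm c and -3.10 in 4am a. In 4am a the second probe set read 1617 while the first read 13836, and its own next lowest signal was 7412 in 4pm c. Both arrays are among the 4 with a Gapdh ratio above 2, while 4pm b and 4am b, which are among them too, lay within the range of the other 14 arrays. Where each probe set lies along the transcript was not used here, and the part of RNA length in the low value was not tested.

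**Figure D3:**
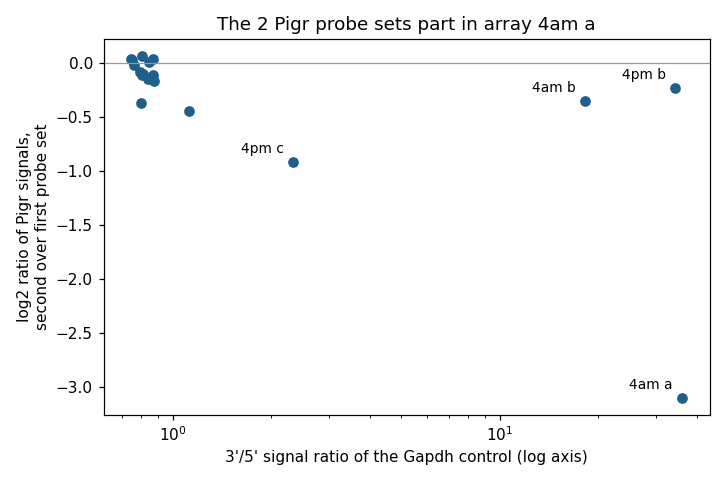
The log2 ratio of the second to the first Pigr probe set is plotted against the 3′/5′ signal ratio of the Gapdh control on a log axis, with 1 point per array. Array 4am a lies at -3.10 and 4pm c at -0.92, while the 14 arrays with a Gapdh ratio under 2 lie between -0.44 and 0.06.

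Nos2, the inducible nitric oxide synthase of macrophages and stimulated epithelium, was also highest at 12 o'clock. On its probe set (1420393_at), 8am arrays a to c read 22.3, 7.46 and 17.9, those of 12pm 53.5, 63.3 and 29.01, and those of 4pm 24.4, 23.2 and 31.9. Arrays of 8pm read 54.3, 19.2 and 29.3, those of 12am 53.2, 38.3 and 84.6, and those of 4am 10.5, 34.4 and 33.8. Array 12am c was highest at 84.6, and the sets overlapped through 8pm a and 12pm c. The range over the sets was 0.80 on the log2 scale, with an adjusted p of 0.0388 from limma when every probe set was tested without a filter (29% of probe sets called). The first Reg3b probe set, with 0.0308, was the only other of the 11 called there. The Nos2 difference between 12 and 8 o'clock was 0.80 as deposited, 0.60 relative to the median of all probe sets and 0.40 after quantile normalization, so the scaling changed its size. Summed signal of 11 macrophage markers, all past the filter, ran from 10999 in 8am a to 19420 in 4am a, an array where Nos2 was low.

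Lcn2, lipocalin 2, starves bacteria of iron by binding their siderophores. On its probe set (1427747_a_at), 8am arrays a to c read 111, 63.9 and 114, those of 12pm 116, 168 and 139, and those of 4pm 156, 56.97 and 77.1. In the dark, 8pm arrays read 112, 163 and 161, those of 12am 116, 29.8 and 137, and those of 4am 82.5, 6.34 and 36.3. The mean was lowest at 4am, where 4am b read 6.34, but 4am a overlapped with 8am and 4pm. The range over the 6 times was 1.71 on the log2 scale, with an adjusted p of 0.131 from limma with no filter, which missed the threshold. Array 4am b was also the lowest for Duoxa2 and S100a8 and has a Gapdh ratio of 18.2.

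Saa3, an acute phase serum amyloid A, varied widely among arrays of the same time. On its probe set (1450826_a_at), 8am arrays a to c read 134, 62.97 and 19.3, those of 12pm 189.9, 90.4 and 140.4, and those of 4pm 222, 52.4 and 119. With lights off, 8pm arrays read 175, 133 and 177, those of 12am 151, 98.97 and 162, and those of 4am 249.6, 57.7 and 80.2. At 8am the arrays ran from 19.3 to 134, and the 6 times overlapped. The adjusted p over the 6 times was 0.451 from limma with no filter. The highest value, 250, was in 4am a, where summed signal of 7 adipocyte markers, 5 past the filter, was 9959, the highest of all arrays, against a median of 2736. The part of fat tissue in this value was not tested.

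S100a8 and S100a9 together form calprotectin, a protein that withholds zinc and manganese from bacteria and fills the cytosol of neutrophils. The genes lie on chromosome 3, S100a8 at chr3:90669071-90670034 and S100a9 at chr3:90692630-90695721 (GRCm38.p6), 22595 bases apart. For S100a8 (1419394_s_at), 8am arrays a to c read 31.6, 81.3 and 13, those of 12pm 123, 126 and 92.8, and those of 4pm 94.00, 71.8 and 123. Arrays of 8pm read 82.6, 60.7 and 12.6, those of 12am 100.4, 81.8 and 156, and those of 4am 83.4, 12.1 and 153. The 3 arrays near 13, namely 8am c, 8pm c and 4am b, stood well below the rest. For S100a9 (1448756_at), 8am arrays a to c read 32.2, 29.3 and 5.51, those of 12pm 22.8, 39.9 and 30.2, and those of 4pm 10.4, 18.5 and 23.7. In the dark, 8pm arrays read 73.9, 45.3 and 27.99, those of 12am 21.9, 30.97 and 66.9, and those of 4am 21.2, 6.34 and 27.5. It was also near its lowest in 8am c and 4am b, but not in 8pm c.

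Neither calprotectin gene passed a test between times. With no filter the adjusted p over the 6 times was 0.261 for S100a8 and 0.236 for S100a9, and over the 3 sets 0.0804 and 0.161 (limma). Over all arrays r between them was 0.47 (permutation p = 0.0468, adjusted p = 0.0468, n = 18), and rho was 0.24 (permutation adjusted p = 0.340). Without 4am b and 8pm c, the arrays farthest from the median of S100a8, r was 0.41 (permutation p = 0.117) and rho was 0.14 (permutation p = 0.609), so r missed the threshold at a size close to that over all arrays.

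Within a time, the deposited signals of the 2 calprotectin genes, both under the filter, tended to go up and down together. Deviations were not computed after quantile normalization, where r over all arrays was 0.26. Deviations from the mean of each time gave r = 0.77 (permutation adjusted p = 0.00032, n = 18). The deviations of a time cancel out, so only 12 of the 18 are free to vary. That p-value, given for n = 18, may therefore be too small, and r is given as a description. Within the sets of 6 arrays r was 0.73 at 8 o'clock, 0.65 at 12 o'clock and 0.83 at 4 o'clock (exact permutation p = 0.0806, 0.139 and 0.0236). Reg3b and Reg3g gave -0.19, and the difference between the pairs was not tested. Summed signal of the 14 neutrophil markers with a probe set, of which 4 passed the filter, ran from 888 in 4am a to 2863 in 12am c. Array 4am a had the highest Gapdh ratio, 36.0. The median sum was 2128, of which Cd177 was a large part, with a median of 863 and a range of 11.3 to 1793. S100a8 was highest in 12am c too, at 156, but read 83.4 in 4am a. Whether the number of neutrophils had a part in the shared variation was not tested.

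**Figure D4:**
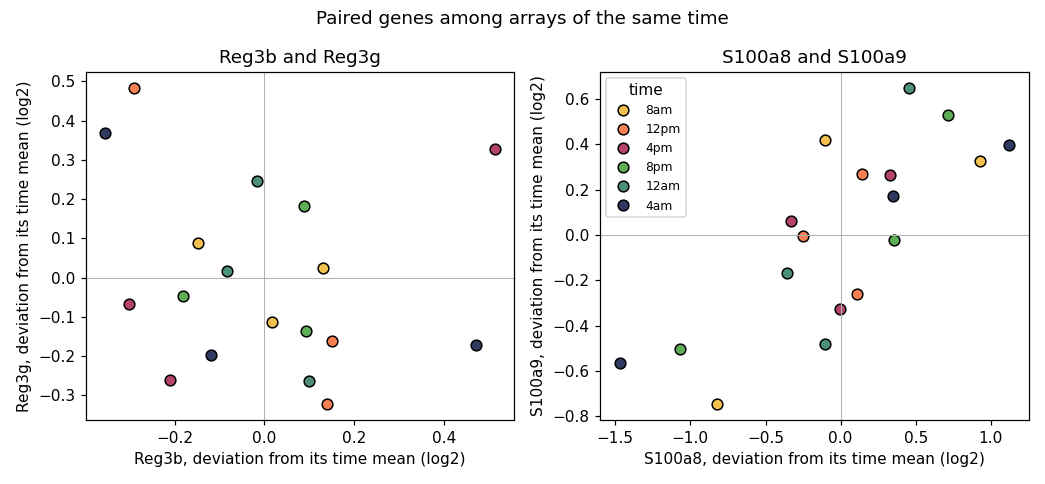
Each point is an array, placed by the deviation of its log2(signal + 16) from the mean of its collection time, for Reg3b and Reg3g on the left and S100a8 and S100a9 on the right, coloured by time. The right panel slopes upward with r = 0.77, and the left panel has r = -0.19.

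Of the genes tested, those whose signal was most like a defence gene over the 18 arrays were found by Pearson's r, given as a description since arrays of a set share their level. Reg3b was most like Tgfb2 (0.93) and Prr5l (0.90), and Reg3g was most like Rgs10 and Qars (both 0.84). Pigr was most like Adh1 (0.97) and Rps28 (0.95), Duoxa2 like Phgdh (0.81) and Gpr182 (0.79), and Nos2 like Snrpc (0.85) and Gpr61 (0.83). The likeness was 0.85 for Acy3 and 0.81 for Arhgef40 with Lcn2, 0.70 for Oprk1 and 0.69 for Cxcr6 with Saa3, 0.89 for Anks3 and 0.87 for Snhg7 with S100a8, and 0.82 for Trav9d-3 and Zswim9 with S100a9. No defence gene was a candidate in this search.

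Genes of further secreted antimicrobial and mucosal proteins were called between the sets of times as well. Of 26 such genes 19 were tested. Of these, 13 differed between the 3 sets (35% of all genes) and 7 between any of the 6 times (17%). For the 24 h curve or a contrast of light with dark, 0 were called. As deposited, 8 of the 13 were highest at 8 o'clock, 3 at 12 o'clock and 2 at 4 o'clock. Among all 4503 genes called, 1244 were highest at 8, 1493 at 12 and 1766 at 4 o'clock. The median range of all 19 over the sets was 0.63, against 0.56 over all genes. After quantile normalization 7 of the 13 were still called (32.3% of all genes were called). Those no longer called were Zg16, Lypd8, Saa1, Tff3, Muc2 and Fcgbp, all from the group highest at 8 o'clock as deposited.

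The lysozyme genes had their highest means at 4 o'clock. Lyz1, the Paneth cell lysozyme that splits bacterial cell walls, had signals of 1857 to 2920 at 8am, 2161 to 3566 at 8pm, 4753 to 5636 at 4pm and 5191 to 9760 at 4am. Array 12pm a, at 5261, lay within the 4 o'clock range. Its adjusted p between the sets was 0.00158 from limma, and that of Lyz2, the macrophage lysozyme, was 0.00185. The 2 genes are close paralogs, and their probes may share signal. The 4 raised Gapdh ratios are all of 4 o'clock arrays, and the summed macrophage markers, a list that holds Lyz2, ran from 13695 to 19420 at 4 o'clock against 10999 to 15295 at 8 o'clock. They were highest in 4am a, where Lyz1 (9760) and Lyz2 (4996) were highest too, and their part in the result was not tested. Both were still called after quantile normalization, with 0.00117 and 0.00204.

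Saa1 and Clca1 were highest at 8 o'clock as deposited, and Saa1 also after quantile normalization. Saa1, another serum amyloid A, had signals between 19352 and 20395 at 8am and between 19623 and 20085 at 8pm, and between 11332 and 17549 in all other arrays. Its adjusted p was 0.00243 from limma, and 0.116 after quantile normalization. Clca1, a goblet cell protein of the mucus layer, had an adjusted p of 0.00687. After quantile normalization it was 0.0461, with means of 14.04 at both 8 and 12 o'clock and 13.71 at 4 o'clock, so that the difference was of 4 o'clock from the others.

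Ang4 and Reg1 varied widely, also among arrays of the same time. Ang4, a bactericidal ribonuclease of Paneth and goblet cells, read 5360 and 6641 in 4pm a and b but 392 in 4pm c, and no more than 1235 elsewhere. It differed between the 6 times (adjusted p = 0.0272 from limma) with a 24 h amplitude of 1.58 ± 0.42 (SE, n = 18) that was not called (adjusted p = 0.948). Reg1, a lectin gene of the Reg family made in the pancreas and in regenerating gut, read 19548 in 12am b and 8393 in 4pm b, the arrays with the most pancreas signal, and 1038 or less elsewhere. It was 88.0 or less in all 8 o'clock arrays and 91.3 to 963 at 12pm. Its adjusted p between the sets was 0.0221.

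Of 20 other oxidase and nitric oxide genes 12 were tested. Of these, 4 differed between the sets (35% of all genes) and 3 between any of the 6 times (17%). The median range of the 12 was 0.61. Cyba, the membrane subunit that partners the NADPH oxidases, had the lowest adjusted p (0.0141 from limma). Its signals were 155 in 4am a, 268 in 4am b and 1261 in 4pm b. They were 2786 in 4am c and between 2127 and 4192 in the remaining arrays. Its 3 lowest signals are therefore those of the 3 arrays with the highest Gapdh ratio. The range over the sets was 1.79. Cybb, the phagocyte oxidase subunit, was highest at 4 o'clock (0.0156). Its 3 highest signals, 557 to 1060, were those of the 3 arrays with the highest Gapdh ratio. Arrays 4pm a and 4am c read 448 and 442, against up to 428, in 8pm b, at the other times. The part of RNA length in the Cyba and Cybb values was not tested. Nos3, the endothelial synthase (0.0249), and Duox1, the paralog of Duox2 (0.0426), were highest at 12 o'clock, Nos3 only as deposited (8.25 at 4 o'clock and 8.19 at 12 o'clock after quantile normalization). After quantile normalization 2 of the 4 were still called, Cyba and Cybb.

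Of 28 genes of IL-17, IL-22 and NF-kappaB signalling 19 were tested. Of these, 10 differed between the sets (35% of all genes) and 6 between any of the 6 times (17%). The median range of the 19 was 0.71. As deposited, 4 of the 10 were highest at 8 o'clock (Il10rb, Stat3, Nfkbia and Fut2) and 2 at 12 o'clock (Il1b and Il17rc). The 4 highest at 4 o'clock had the lowest adjusted p. Nfkbiz, a nuclear cofactor of NF-kappaB that IL-17 induces, had signals between 1374 and 1520 at 4pm, between 1788 and 2091 at 4am and between 331 and 1320 at the other times (adjusted p = 0.00529 from limma). Il18, an epithelial cytokine, had 0.00736, Il22ra2, the soluble inhibitor of IL-22, 0.00761, and Tnfaip3, a brake on NF-kappaB, 0.0133. After quantile normalization 9 of the 10 were still called. Nfkbia was then highest at 4 o'clock (13.25, against 13.20 at 8 o'clock) and Stat3 at 12 o'clock (11.894, against 11.889 at 8 o'clock). Arrays 4am c and 4pm a, the 4 o'clock arrays with Gapdh ratios under 2 (0.750 and 0.867), read 2091 and 1400 for Nfkbiz. They read 864, the highest signal, and 368 for Il22ra2, and 2486 and 1977 for Tnfaip3. For Il18 they read 5132 and 5088, within its 8am range of 3879 to 5735. The 4 highest Il18 signals, 6053 to 10395, were those of the 4 arrays with raised Gapdh ratios. The part of RNA length in these values was not tested. In 4pm b, 4am a and 4am b, the arrays of highest Gapdh ratio, Stat3 read 939, 267 and 995. Il17rc read 74.2, 191 and 237 in them. These were the lowest signals of both genes, and the part of RNA length in them was not tested.

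Of 16 genes of IgA production 10 were tested. Of these, 2 differed between the sets (35% of all genes) and 1 between any of the 6 times (17%). The 2 were Ccl28, the chemokine that draws IgA plasma cells to the gut (0.0420 from limma), and Ighm, the IgM heavy chain (0.0446). Ighm read 2091 and 2213 in 4am a and b and 334 to 996 in the other 16 arrays. Igha, the IgA heavy chain whose product Pigr carries, did not pass (range 0.44, adjusted p = 0.434). The median range of the 10 was 0.39. After quantile normalization 0 of the 10 were called between the sets. Summed signal of 7 plasma cell markers ran from 17713 in 8am b to 49405 in 8am a, so both ends of its range lay in 1 time.

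Over the 4 lists together, 0 of 60 tested genes were called by limma for the 24 h curve (3 at an unadjusted p under 0.05), for light against dark (5), for 8am against 8pm (1), for 12pm against 12am (3) or for 4pm against 4am (17). Of all 12870 genes, 509, 799, 371, 1044 and 2533 had an unadjusted p under 0.05 in these 5 tests.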

How the data were processed

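The deposited table holds 1 intensity per probe set and array on a linear scale, computed by the authors in GCOS (Affymetrix software), per the submitters' processing notes; version and genome build are not given in the sources used here. In the file, the mean of each array after trimming 2% at each end is 500. Log2(signal + 16) was analysed as deposited. Control probe sets (64) and probe sets without exactly 1 gene symbol were left out, low probe sets (mean log2 under the 40th percentile) were filtered, and each gene was taken at its probe set of highest mean.

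limma 3.58.1 (R 4.3.3; empirical Bayes with a trend) fitted a 24 h cosine curve and 6 time means over all genes, tested two-sided with Benjamini-Hochberg adjustment, and was tested on simulated data. Adjusted p of genes under the filter come from a fit of all 34945 probe sets with 1 symbol. Correlations used 100000 permutations. The planned correlation of Duox2 with Duoxa2 could not be run.

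Members and lists were chosen with earlier results of these data known. Named genes were all member probe sets, the 2 most like genes of each, and up to 4 list genes of lowest adjusted p per test, plus those of largest range. Gene positions, promoters and motif shares are from RefSeq (GRCm38.p6). Alternatives changed the constant, scaling, filter, probe set choice, moderation, block, weights and arrays. The number of arrays limits the precision.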

Additional observations from a re-analysis of the deposited data

How the results depend on the processing

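No defence gene was called for the 24 h curve, light against dark, 8am against 8pm or 12pm against 12am under any alternative run. The contrast of 4pm with 4am gained 1 gene, Pigr, with array quality weights, and 0 to 1 when single arrays were left out. The test over the 6 times called 3 genes with array quality weights, which called 8974 of 12870 genes, 2 without the 3 arrays of highest Gapdh ratio, and 0 to 2 with single arrays left out. Between the 3 sets of times 0 genes were called after quantile normalization and 3 with array quality weights (7929 genes). Leaving out single arrays gave 1 to 3, and Reg3b was called each time. The letters a to c do not pair the arrays: arrays of the same letter had a mean correlation of -0.01 over 45 pairs of arrays. With the replicate block 1 gene was called between the sets, Reg3b (4374 genes in all, 4503 without the block).

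The correlation of Reg3b with Reg3g was 0.31 after quantile normalization, 0.44 relative to each array's median (added after seeing the data), -0.19 from deviations from the time means, -0.16 with the replicate block and 0.40 to 0.61 with single arrays left out. That of S100a8 with S100a9 was 0.42 with a constant of 64, 0.26 after quantile normalization, 0.35 without the 3 arrays, 0.31 relative to each array's median, 0.78 with the replicate block and 0.34 to 0.55 with single arrays left out.

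Differences that were never called changed sign, and the cause was not tested. Light minus dark went to 0.00936 without the 3 arrays for Reg3b (-0.151 to 0.0135 with single arrays left out), to -0.0110 after quantile normalization for Duoxa2 (-0.00796 to 0.0803) and to 0.0296 after quantile normalization for Pigr. 12pm minus 12am went to 0.14 after quantile normalization for Pigr (-0.139 to 0.0197). 4pm minus 4am went to -0.18 with array quality weights for Reg3b. With no detection calls, signal over background could not be judged, which limits the 6 genes under the filter most.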
